A study of Homo sapiens with 20 samples.

Results

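The mature miRNAs of untreated TPC-1 cells, a line established from a human papillary thyroid carcinoma, were described from the 4 untreated miRNA-seq libraries of a series of 20 samples. The libraries were chosen by their labels and by the columns named for them in the deposited miRNA table. The cells had been kept for 48 h without the polymorphonuclear myeloid-derived suppressor cells (PMN-MDSCs) that other samples of the series received. No genotype change, transgene or drug is named for them, and no treated sample entered any value. The labels do not say whether the 4 libraries came from separate cultures, so every SD and p-value measures the spread between these libraries, which may be technical.

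MicroRNAs are short RNAs cut by Drosha and Dicer from a hairpin. Either side of the hairpin, the 5p arm or the 3p arm, can be loaded into an Argonaute protein, and the other arm is usually degraded. The loaded arm pairs with mRNAs mainly through its seed, bases 2 to 8 from its 5′ end, so miRNAs that share a seed form a family. Many hairpins lie in clusters that are transcribed as 1 precursor. miR-21, miR-221 and miR-222 are well known for high levels in thyroid and other carcinomas, and the let-7 family for restraining growth genes in differentiated cells.

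The mature sequences below are those of the most abundant names and of members of their seed families, because families and arms are described from them. They were taken from RefSeq (GRCh38.p14), which matched 2367 of the 2656 names of the table, and the seed is in capitals. miR-21-5p lies at chr17:59841273-59841294 (+), inside the span of the protein-coding gene VMP1. let-7i-5p lies at chr12:62603691-62603712 (+) in the noncoding host gene MIRLET7IHG, and let-7g-5p at chr3:52268336-52268357 (-) in the span of WDR82. miR-30a-5p is at chr6:71403595-71403616 (-), with no spanning host gene in the RefSeq table. miR-221-3p (chrX:45746180-45746202, -) and miR-222-3p (chrX:45747036-45747056, -) share the noncoding host MIR222HG. miR-27b-3p lies at chr9:95085505-95085525 (+) in the span of AOPEP, and miR-200b-3p at chr1:1167160-1167181 (+) in MIR200BHG. The table of genes does not place exons, so exonic and intronic positions are not given.
miR-21-5p: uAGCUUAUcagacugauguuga
let-7i-5p: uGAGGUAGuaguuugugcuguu
let-7a-5p: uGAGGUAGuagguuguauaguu
let-7g-5p: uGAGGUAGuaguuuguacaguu
miR-30a-5p: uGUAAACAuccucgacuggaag
miR-30c-5p: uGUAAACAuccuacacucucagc
miR-221-3p: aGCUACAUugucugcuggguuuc
miR-222-3p: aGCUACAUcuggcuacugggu
miR-27b-3p: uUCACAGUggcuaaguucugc
miR-27a-3p: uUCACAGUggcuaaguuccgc
miR-92a-3p: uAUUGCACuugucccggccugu
miR-25-3p: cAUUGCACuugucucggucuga
miR-200b-3p: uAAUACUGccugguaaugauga
miR-429: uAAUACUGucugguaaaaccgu

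Levels are given as CPM, a name's count divided by the library total and multiplied by 1000000. Totals ran from 4621087 to 5895539 counts, and the floor of a library, set at 3 counts, stood for 0.509 to 0.649 CPM. CPM was not divided by length, since mature miRNAs are of similar length, and a share of counts is not a number of molecules. Libraries correlated across the 432 names with a mean of 10 CPM or more at a Pearson r of 0.960 to 0.993 on log2 CPM. The closest pair, controls 1 and 2, still differed by a chi-square of 13.2 per degree of freedom, more than counting error gives. The chi-square was taken over all names with a count in either library of the pair. This covers counting error only and does not show that the libraries came from separate cultures. Control 4 stood apart in that 9 miRNAs of blood cells summed to 27052 CPM there and to 1051 to 1346 CPM in controls 1 to 3. Values that rest on control 4 are therefore given with and without it.

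The untreated cells were dominated by a few names. miR-21-5p, which represses the tumor suppressor PDCD4, stood at 385805, 394155, 406055 and 391168 CPM in controls 1 to 4, a mean of 394296 ± 8567 (SD, n = 4). It thus took 38.6% to 40.6% of every library. let-7i-5p followed at 146315, 130967, 162221 and 149969 CPM, and miR-30a-5p at 71368, 80326, 75804 and 61290 CPM. These 3 names held ranks 1 to 3 in the same order in every library, and their ranges did not overlap. Together they made up 61.4% ± 2.02 (SD, n = 4) of the counts, the first 10 names 75.5% ± 1.40, the first 20 names 83.0% ± 0.551 and the first 100 names 96.9% ± 0.296. Without control 4 the first 10 names held 76.2% ± 0.745 (SD, n = 3).

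**Figure D1:**
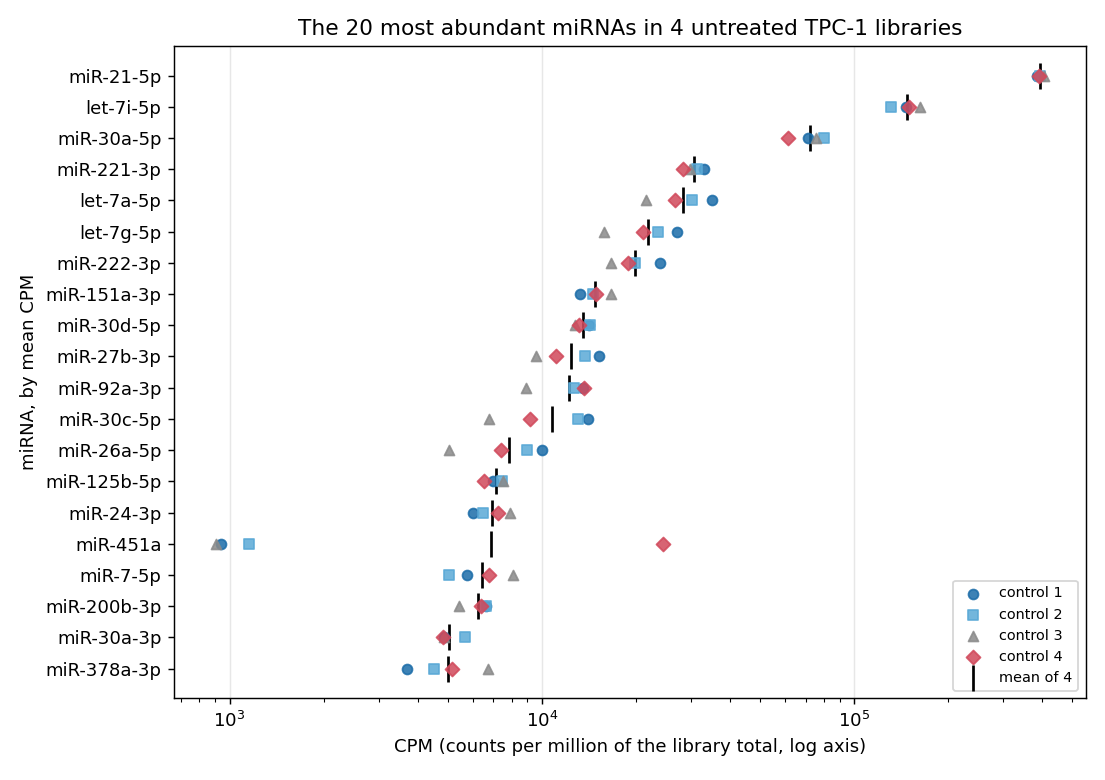
CPM on a log axis of the 20 miRNAs with the highest mean, one row per miRNA, with a symbol for each of the 4 untreated libraries and a black bar at their mean. miR-21-5p, let-7i-5p and miR-30a-5p hold the first 3 places in all 4 libraries, while miR-451a is at 24413 CPM in control 4 and at 902 to 1158 CPM in the other 3.

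Ranks 4 to 7 were held by miR-221-3p, let-7a-5p, let-7g-5p and miR-222-3p. miR-221-3p and miR-222-3p, repressors of the cell-cycle inhibitor p27, were at 30662 ± 2066 and 19842 ± 3013 CPM (SD, n = 4). let-7a-5p ran from 21531 to 35164 CPM, a range that held the whole range of miR-221-3p, so ranks 4 and 5 cannot be ordered; control 1 had let-7a-5p above miR-221-3p and the other 3 libraries the reverse. let-7g-5p and miR-222-3p also overlapped, at 15797 to 27038 and 16643 to 23867 CPM. Next came miR-151a-3p at 14828 ± 1415, miR-30d-5p at 13575 ± 763, miR-27b-3p at 12427 ± 2541, miR-92a-3p at 12182 ± 2212 and miR-30c-5p at 10751 ± 3393 CPM, all 5 with overlapping ranges. Of the first 10 names by mean, 7 were among the first 10 of every library, and of the first 20, 17 were among the first 20 of every library.

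Ranks 13 to 20 held miRNAs of several known roles. miR-26a-5p, a repressor of EZH2, was at 7882 ± 2165 CPM, and miR-125b-5p, which targets members of the p53 network, at 7115 ± 470. miR-24-3p was at 6916 ± 828 CPM and miR-7-5p, a repressor of EGFR signaling, at 6416 ± 1321. miR-200b-3p, which keeps cells epithelial by repressing ZEB1 and ZEB2, was at 6270 ± 580 CPM. miR-30a-3p, the other arm of the miR-30a hairpin, was at 5062 ± 423 and miR-378a-3p at 5015 ± 1275 CPM. miR-451a, the marker miRNA of red cells, owed its rank of 16 to control 4: without it the mean was 1000 ± 137 CPM (SD, n = 3) and the rank 67.

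The tail was long. In every one of the 4 libraries, 817 names reached 1 CPM, 368 reached 10, 164 reached 100, 63 reached 1000 and 9 reached 10000 CPM. Without control 4 the same counts were 836, 373, 165, 63 and 9. Of the 2656 names, 113 had no count in any of the 4 libraries.

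Grouped by seed, the first 10 families of names with a RefSeq match held 80.9% ± 1.66 of the counts (SD, n = 4). miR-151a-3p and miR-30d-5p, ranks 8 and 9 by level, had no match and are left out of these families; by the sequences deposited in the table, the family of miR-151a-3p ranks 7 and that of miR-200b-3p 11. The AGCUUAU family was miR-21-5p with miR-590-5p, and miR-21-5p made up 99.9964% of its 394310 CPM. The let-7 family, seed GAGGUAG, summed to 219671, 195699, 209096 and 208689 CPM in controls 1 to 4, or 20.8% ± 0.981 of the counts. let-7i-5p alone was 70.8% of that sum, and let-7a-5p (28410 CPM), let-7g-5p (21844), let-7d-5p (3755), let-7b-5p (3238), miR-98-5p (1757), let-7c-5p (1361), let-7f-5p (493) and let-7e-5p (59.7) followed. Relative to its mean, the family sum varied less between libraries than let-7a-5p or let-7g-5p, whose lowest values were both in control 3.

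The GUAAACA family of miR-30a-5p, miR-30c-5p and miR-30e-5p, known to repress genes of mesenchymal change and autophagy, summed to 85989 ± 9315 CPM. With miR-30d-5p and miR-30b-5p, which had no RefSeq match, the miR-30 list summed to 100275 ± 9959 CPM and was lowest in control 4, at 87479. The GCUACAU family is the pair miR-221-3p and miR-222-3p, at 50504 ± 4795 CPM. The UCACAGU family of miR-27b-3p and miR-27a-3p (3666 ± 567 CPM) held 16101 ± 3016, with miR-27b-3p at 77.2% of it. The AUUGCAC family of miR-92a-3p, miR-25-3p (1785 ± 176) and miR-92b-3p (1371 ± 172) held 16084 ± 2566 CPM, and these last 2 families did not differ beyond their spread.

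The smaller families were those led by miR-17-5p, miR-125b-5p, miR-26a-5p and miR-200b-3p. The AAAGUGC family, the growth-promoting miR-17 group, held 10439 ± 1539 CPM, with miR-17-5p at 4558 ± 318, miR-20a-5p at 3919 ± 1274 and miR-93-5p at 1589 ± 99.5. The CCCUGAG family of miR-125b-5p and miR-125a-5p (3210 ± 341) held 10331 ± 533 CPM, and the UCAAGUA family of miR-26a-5p and miR-26b-5p (1390 ± 420) held 9273 ± 2572. The AAUACUG family of miR-200b-3p, miR-429 (956 ± 57.9) and miR-200c-3p (30.6 ± 7.84) held 7256 ± 616 CPM. The ranges of the miR-17, miR-125 and miR-26 families overlapped, so their order is not fixed by these libraries.

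Markers were read next, as a check of the labelled cell type. For comparison, 188 of all 2656 names had a mean of 100 CPM or more. Of the 12 miRNAs listed for papillary thyroid carcinoma, 7 were at 100 CPM or more: besides miR-21-5p, miR-221-3p and miR-222-3p these were miR-181b-5p (3374 ± 600 CPM), miR-31-5p (2386 ± 138), miR-155-5p (2318 ± 355) and miR-34a-5p (501 ± 79.7). miR-146b-5p, the miRNA best known for its rise in papillary thyroid tumors, was at 4.41, 6.06, 5.83 and 4.04 CPM, while its near-identical relative miR-146a-5p was at 92.4 ± 18.9. miR-551b-3p (2.32 ± 0.866 CPM), miR-187-3p (1.71 ± 1.11) and miR-375-3p (0.924 ± 0.711) were close to the floor. Of the 11 miRNAs listed as lower in thyroid carcinoma, 7 were likewise at 100 CPM or more. They were miR-30a-5p, miR-451a, miR-7-5p, miR-138-5p (642 ± 231 CPM), miR-139-5p (554 ± 35.9) and both miR-486 arms; without control 4 the miR-486 arms were at 86.7 and 93.6 CPM.

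Epithelial markers were present in part. miR-200b-3p, miR-200a-3p (3763 ± 506 CPM) and miR-429, which share 1 locus, were high in every library. miR-200c-3p, of the same seed as miR-200b-3p, and miR-141-3p (15.5 ± 5.05 CPM), from a second locus, were low in every library. miR-205-5p, a marker of squamous and basal epithelium, was at 0.678 to 7.69 CPM and highest in control 4, and miR-203a-3p at 0.170 to 1.73. Of miRNAs linked to other cell types, miR-126-3p, the endothelial miRNA from EGFL7, was at 2192 to 2640 CPM and miR-128-3p, listed as neural, at 2289 to 3537 in all 4 libraries. Of 7 listed neural names found in the data, 4 had means of 100 CPM or more, against 188 of all 2656 names. Besides miR-128-3p these were miR-129-5p (173 ± 43.3 CPM), miR-218-5p (135 ± 9.37) and miR-9-5p (115 ± 12.9). miR-124-3p, the defining neuronal miRNA, was at 0 to 1.51 CPM. miR-10a-5p was at 7.93 ± 1.64 and miR-10b-5p at 0.447 ± 0.138 CPM.

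The blood miRNAs set control 4 apart. miR-451a, which is matured by Argonaute-2 without Dicer, was at 942, 1158, 902 and 24413 CPM in controls 1 to 4, 24.4-fold the mean of the other 3 in control 4. miR-144-5p from the same erythroid locus was at 30.4, 44.1, 32.5 and 638 CPM, and miR-144-3p at 11.4, 10.4, 9.37 and 288. miR-486-5p was at 82.8, 99.98, 77.3 and 1088 CPM and miR-486-3p, which the title of the series names, at 86.3, 107.6, 87.0 and 1091. In each of these, controls 1 to 3 lay close together and control 4 far above them.

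The same held for leukocyte miRNAs. miR-142-5p, found in nearly all blood lineages, was at 16.3, 24.9, 22.5 and 490 CPM, and miR-142-3p at 3.56, 3.90, 3.12 and 63.8. miR-223-3p, the myeloid miRNA, was at 2.71, 3.46, 3.54 and 56.9 CPM, and miR-150-5p, of lymphocytes, at 0.848, 1.73, 1.04 and 10.6. All 9 listed blood names were highest in control 4, and their sum was 23.3-fold the mean of controls 1 to 3. Over all 432 names with a mean of 10 CPM or more, control 4 included, 68 (15.7%) were highest in control 4. The median ratio of control 4 to the mean of the others was 0.980, and its 5th to 95th percentiles were 0.746 to 1.80. The blood list was not at 0 in controls 1 to 3 either, where miR-451a ranked between 67 and 73. Where the RNA of these names came from was not tested, and more cells of a type and more RNA per cell cannot be told apart in such libraries.

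**Figure D2:**
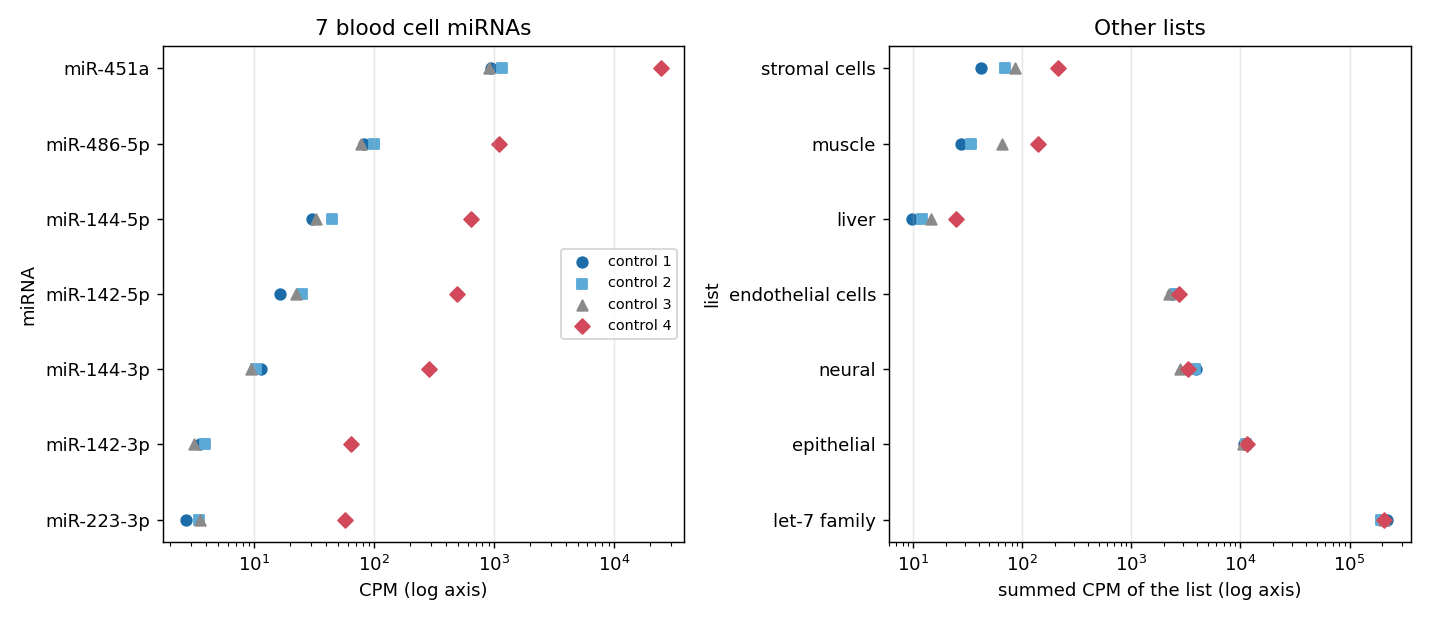
CPM of 7 blood cell miRNAs (left) and summed CPM of 7 other lists (right), both on log axes, with a symbol for each untreated library. Control 4 lies far to the right for every blood miRNA and, by less, for the stromal, muscle and liver lists, while the 4 libraries lie together for the endothelial, neural, epithelial and let-7 lists.

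Names outside the blood list were also higher in control 4. miR-363-3p, of the X-linked miR-106a-363 cluster, was at 13.7, 17.1, 7.29 and 273 CPM, 21.5-fold the mean of the other 3, and miR-20b-5p of that cluster at 13.4, 17.5, 11.9 and 62.3. The muscle list summed to 27.3 to 65.4 CPM in controls 1 to 3 and 139 in control 4, and 5 of its 7 members had means under 10 CPM. miR-1-3p, its leading member, was at 17.5, 23.2, 44.8 and 96.7 CPM. The stromal list, led by miR-143-3p at 26.5, 48.0, 57.9 and 160 CPM, summed to 41.6 to 86.4 CPM in controls 1 to 3 and 215 in control 4, and the liver miRNA miR-122-5p was at 9.84, 12.1, 14.6 and 24.8. In all, 17 of the 432 names were over 2-fold higher in control 4 than the mean of the others, and 10 over 4-fold. The let-7 sum of control 4 was within the range of the other 3.

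Hairpins of a cluster differed widely in level. A hairpin's level is the summed CPM of its names, and a name listed on several hairpins counts for each, so folds within a cluster use names of a single hairpin. The growth-promoting miR-17-92a cluster in MIR17HG (chr13:91350605-91351391, +) has 6 hairpins within 787 bases. It gave 4593 CPM for MIR17, 3927 for MIR20A, 258 for MIR18A and 252 for MIR19A, an 18.2-fold span. Its MIR92A1 reached 12184 CPM, but miR-92a-3p is also listed on the MIR92A2 hairpin of the X-linked cluster, whose single-hairpin members were low: MIR106A at 88.8, MIR18B at 11.4 and, without control 4, MIR20B at 14.3 and MIR363 at 13.0 CPM. The miR-106b-25 cluster in MCM7, a replication helicase gene, was even, with 861 to 1855 CPM.

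Other clusters ranged from even to strongly graded. MIR221 and MIR222 were within 1.62-fold at 32263 and 19931 CPM. The miR-183-96-182 cluster of sensory and epithelial cells spanned 4.25-fold, from MIR96 at 531 to MIR182 at 2258 CPM. MIR191 was at 4016 and MIR425 at 825 CPM, and MIR23B at 1433 and MIR27B at 12568, an 8.77-fold gap between neighbors in AOPEP. The miR-99b-let-7e-125a cluster in SPACA6 held MIR125A at 3266, MIR99B at 865 and MIRLET7E at 97.7 CPM, a 33.4-fold span. MIR130B and MIR301B were 20.1-fold apart, at 302 and 14.998 CPM.

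The miR-200 family differed by locus. On chromosome 1, MIR200B, MIR200A and MIR429 were at 6339 ± 580, 4114 ± 558 and 956 ± 57.9 CPM (SD, n = 4), and on chromosome 12, MIR200C and MIR141 at 30.6 ± 7.91 and 15.6 ± 5.06. The lowest library value on chromosome 1 was 903 CPM and the highest on chromosome 12 was 38.5.

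Clusters of restricted tissues were at low level, though many of their hairpins had counts. For comparison, 1056 of all 2656 names had a mean of 1 CPM or more and 432 had 10 or more. A hairpin sums its names, so its share is not strictly that of single names. The 14q32 and chromosome 19 clusters were taken as the hairpins with a RefSeq position between their end members. Hairpins without such a position were left out. Of the 47 taken for the imprinted cluster at 14q32, none reached a mean of 10 CPM and 27 reached 1, with MIR654 highest at 8.55. Of the 41 taken for the placental cluster on chromosome 19, 11 reached 1 CPM and 2 reached 10, MIR516A1 at 26.8 and MIR526B at 11.5. Only 23 of the 41 were led by a name of a single hairpin. The 11 thus count some names more than once, as miR-526a-5p for MIR526A1 and MIR526A2 and miR-517-5p for MIR517B and MIR517C. MIR371A, MIR372 and MIR373, of pluripotent cells, were all under 1 CPM, and MIR302B led the miR-302-367 cluster at 9.98.

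Arm usage was compared within stems, the names that differ only in -5p and -3p. Of 863 such stems, 344 had at least 10 counts over both arms in every library. They held 91.2% ± 1.22 of all counts, and 83.4% ± 0.302 of those lay on the 5p arm. In the whole table, names ending in -5p held 79.6% ± 1.13 of the counts, names in -3p 18.1% ± 0.341 and names with no arm suffix 2.31% ± 1.11 (SD, n = 4). Without control 4, in which the suffix-free miR-451a is high, the 3 shares were 80.1% ± 0.482, 18.1% ± 0.414 and 1.76% ± 0.110 (SD, n = 3). With miR-21-5p left out, the 5p share was 66.4% ± 1.70.

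By number of stems the arms were nearly balanced. With the library as a block, edgeR's quasi-likelihood test called more 5p than 3p counts in 159 of 344 stems (46.2%) and more 3p in 145 (42.2%), at a Benjamini-Hochberg adjusted p under 0.05. The other 40 stems were not called. A call is about counts, and whether the libraries capture both arms equally was not tested. The counts without control 4 were 157 and 147 of 352. By mean share, 133 stems had over 80% of their counts on 5p, 119 had under 20% and 92 lay between. Of 115 stems with at least 100 CPM over both arms, 60 were over 80% and 38 under 20%, the same counts as without control 4, and 21 were over 99% and 9 under 1%. The 5p share of those 115 stems had a median SD of 0.563 percentage points over the 4 libraries.

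**Figure D3:**
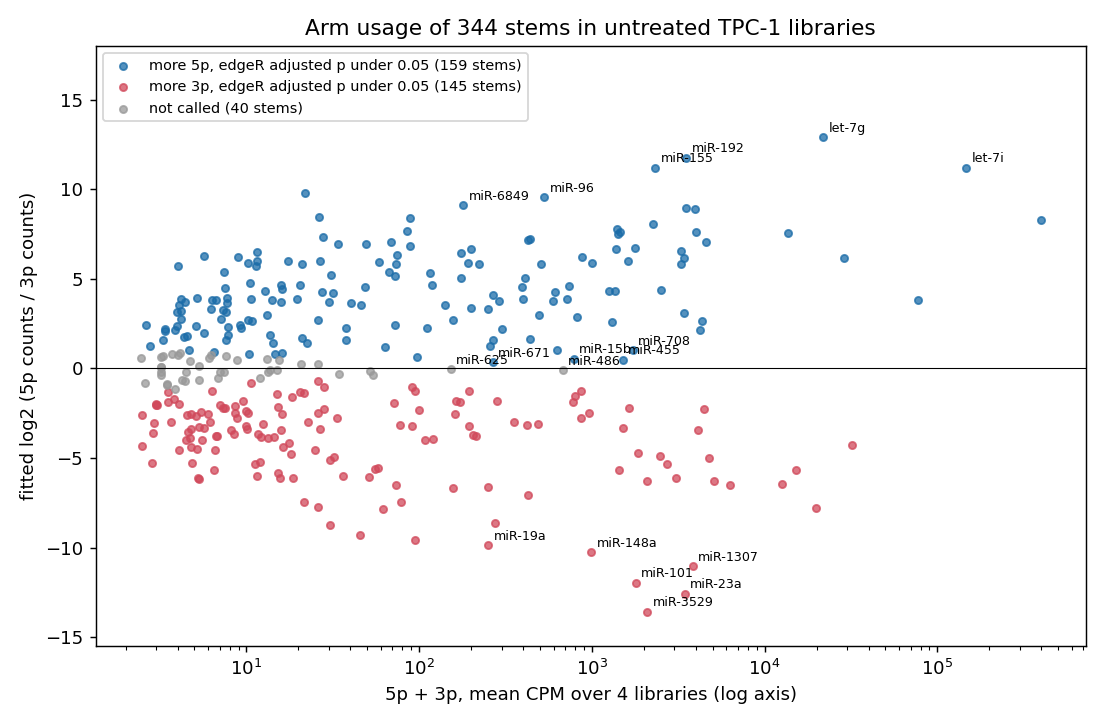
Each of 344 stems by its summed mean CPM (horizontal, log axis) and its fitted log2 ratio of 5p to 3p counts (vertical), colored by the edgeR call, with the 18 described stems named. The 159 stems above and 145 below the zero line that were called spread to ratios of more than 11 log2 units on either side, and the 40 uncalled stems lie mostly at low level.

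The precursors printed here are from RefSeq (GRCh38.p14). Nearly all counts lay on the 5p arm for MIRLET7I (chr12:62603686-62603769, +) and on the 3p arm for MIR23A (chr19:13836587-13836659, -). Both arms were among the first 20 names for MIR30A (chr6:71403551-71403621, -). Both were at similar level for MIR455 (chr9:114209434-114209529, +), which lies in the span of the collagen gene COL27A1. MIR23A lies in the noncoding MIR23AHG. Capitals mark the mature arms.
MIRLET7I: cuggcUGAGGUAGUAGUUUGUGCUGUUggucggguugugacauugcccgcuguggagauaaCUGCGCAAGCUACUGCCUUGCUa
MIR23A: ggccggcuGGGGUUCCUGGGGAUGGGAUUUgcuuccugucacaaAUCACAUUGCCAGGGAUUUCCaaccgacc
MIR30A: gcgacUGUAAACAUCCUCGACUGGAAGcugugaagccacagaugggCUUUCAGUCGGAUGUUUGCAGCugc
MIR455: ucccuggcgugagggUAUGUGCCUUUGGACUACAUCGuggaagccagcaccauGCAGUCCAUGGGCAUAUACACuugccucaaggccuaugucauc

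The strongest 5p stems included let-7g and let-7i. let-7g had 453346 counts on 5p and 57 on 3p over the 4 libraries, a log2 ratio of 12.91 ± 0.27 (SE; edgeR adjusted p = 6.17e-15). let-7i had 3027133 and 1286 counts, a log2 ratio of 11.19 ± 0.17, with 99.963, 99.954, 99.959 and 99.953% on 5p in controls 1 to 4. miR-192, a p53-responsive miRNA of epithelial tissue, had 71650 and 20 counts (11.77 ± 0.26), and miR-155, an inflammatory oncomiR, 47799 and 20 (11.20 ± 0.27). miR-96 and miR-6849 followed at 9.55 ± 0.35 and 9.12 ± 0.30. All 6 were called in every alternative fit that tested them.

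The strongest 3p stems were led by names whose 5p arm was almost unread. miR-23a had 11 counts on 5p and 70772 on 3p, a log2 ratio of -12.58 ± 0.30 (SE; edgeR adjusted p = 1.26e-14). miR-101, a repressor of EZH2, had 9 and 36637 counts, with no 5p count in controls 1 and 2. Its ratio of means was thus 4073-fold with all libraries and 11954-fold without control 4. The 3p name of miR-101 is listed on 2 hairpins and the 5p name on 1, so the ratio is not that of a single hairpin. miR-1307 had 37 and 77609 counts (-11.03 ± 0.24), miR-148a 16 and 20367 (-10.27 ± 0.27) and miR-19a 5 and 5191 (-9.87 ± 0.32). miR-3529 had 3 and 42866 counts, but its 3p arm is the reverse complement of miR-7-5p, as described below.

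Stems nearest to equal arms were miR-486, miR-625, miR-671, miR-455, miR-15b and miR-708. miR-455, a miRNA of cartilage, had 54.5, 53.4, 67.6 and 58.2% of its counts on 5p in controls 1 to 4, a log2 ratio of 0.50 ± 0.17 (SE; edgeR adjusted p = 0.0128). That call was lost without control 4 (edgeR adjusted p = 0.0687) and with limma (0.0800). miR-671 had 56.6, 58.1, 61.4 and 48.2% on 5p, and its call (edgeR adjusted p = 0.0438) was lost in 9 alternatives, among them leaving out control 1 (0.0787), control 2 (0.136) or control 3 (0.131). miR-15b, a cell-cycle repressor, had 56.3 to 63.9% on 5p (log2 ratio 0.56 ± 0.15) and miR-708 58.5 to 72.7% (1.01 ± 0.18), both called in every alternative that tested them. miR-486 and miR-625 were not called, with 5p shares of 48.5% ± 1.23 and 49.1% ± 1.32 (SD, n = 4).

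Arm shares also differed among relatives. miR-30a kept its 3p arm at 5062 CPM, and 93.6, 93.4, 94.0 and 92.7% of its counts were on 5p. miR-221 had 4.23 to 5.87% on 5p and its neighbor miR-222 0.394 to 0.483%. miR-27a had 10.8, 16.1, 26.7 and 17.4% on 5p, whereas miR-27b, whose 3p arm has the same seed, had 0.675, 0.995, 1.85 and 1.24%. These ranges did not overlap within either pair, and control 3 had the highest 5p share of both miR-27 stems. Of the 115 stems at 100 CPM or more, miR-365a varied most between libraries, with 10.6, 29.0, 29.5 and 21.3% on 5p. Its 3p sequence is identical to that of miR-365b, so their 3p counts are uncertain.

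The first base of the arms was counted because Argonaute proteins are known to prefer a 5′ U or A. Among 91 stems at 100 CPM or more with over 80% of counts on a single arm and no antisense partner, the higher arm began with U in 54 (59.3%) and the lower arm in 12 (13.2%). An A came first in 22 of the higher arms and in 31 of the lower arms, so A went the other way. Of all 2656 names, 36.4% began with U and 737 with A. For the 56 stems of this set on 5p the shares were 67.9% and 14.3%, and for the 35 on 3p 45.7% and 11.4%. These are descriptions of names that share families and were not tested.

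Some stems held names that are reverse complements of each other. In 161 pairs of names, 16 or more bases of a mature sequence matched the reverse complement of another, and 45 of the 344 tested stems held such a name. The use of strand in counting is not given in the sources used here, and without it reads of a name and of its antisense partner cannot be told apart. The sequences are shown for 4 pairs, with the complementary stretch in capitals. miR-423-5p and miR-3184-3p are opposite strands of chr17:30117095-30117117, and MIR24-1 and MIR3074 of overlapping positions in AOPEP. miR-625-5p and miR-625-3p are the arms of a single, nearly perfect hairpin in the span of FUT8, so each is complementary to the other.
miR-24-3p: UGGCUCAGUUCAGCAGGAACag
miR-3074-5p: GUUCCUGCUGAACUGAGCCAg
miR-7-5p: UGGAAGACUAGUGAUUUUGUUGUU
miR-3529-3p: AACAACAAAAUCACUAGUCUUCCA
miR-423-5p: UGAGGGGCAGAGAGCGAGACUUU
miR-3184-3p: AAAGUCUCGCUCUCUGCCCCUCA
miR-625-5p: AGGGGGAAAGUUCUAUAGUCc
miR-625-3p: GACUAUAGAACUUUCCCCCUca

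Counts of several such partners stood in nearly the same proportion in every library. This did not hold for all pairs: miR-378i, with 16 complementary bases, had 3.17 to 4.38 times the counts of miR-345-5p, at 1 hairpin each. miR-24-3p had 1.995, 1.986, 1.981 and 1.972 times the counts of miR-3074-5p in controls 1 to 4, and the deposited table lists 2 hairpins for the first and 1 for the second. miR-7-5p had 3.10, 3.02, 3.07 and 3.06 times the counts of miR-3529-3p, with 3 hairpins against 1. miR-423-5p had 1.05, 1.02, 0.97 and 0.99 times the counts of miR-3184-3p, and miR-103a-3p 1.08 to 1.10 times those of miR-103b, with equal numbers of hairpins in both pairs. Of 10 pairs with 20 or more complementary bases and at least 50 CPM, 8 had a count ratio within 15% of the ratio of their listed hairpins in every library. In those 8 the count ratio ran from 0.974 to 1.149 times the hairpin ratio, so a narrower limit would keep fewer.

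The other 2 pairs were miR-103b with miR-107, at 6.87 to 8.16 against 2 to 1 hairpins, and miR-374c-3p with miR-374c-5p, at 7.46 to 10.5 against 1 to 1. The nearly equal arms of miR-486 (ratio of 3p to 5p 1.04, 1.08, 1.13 and 1.002) and of miR-625 (0.99, 1.10, 1.06 and 0.99) belong to the 8 pairs, so an arm preference of these stems cannot be read from the table. Without the 45 stems, edgeR called 136 stems for 5p and 132 for 3p of 299.

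**Figure D4:**
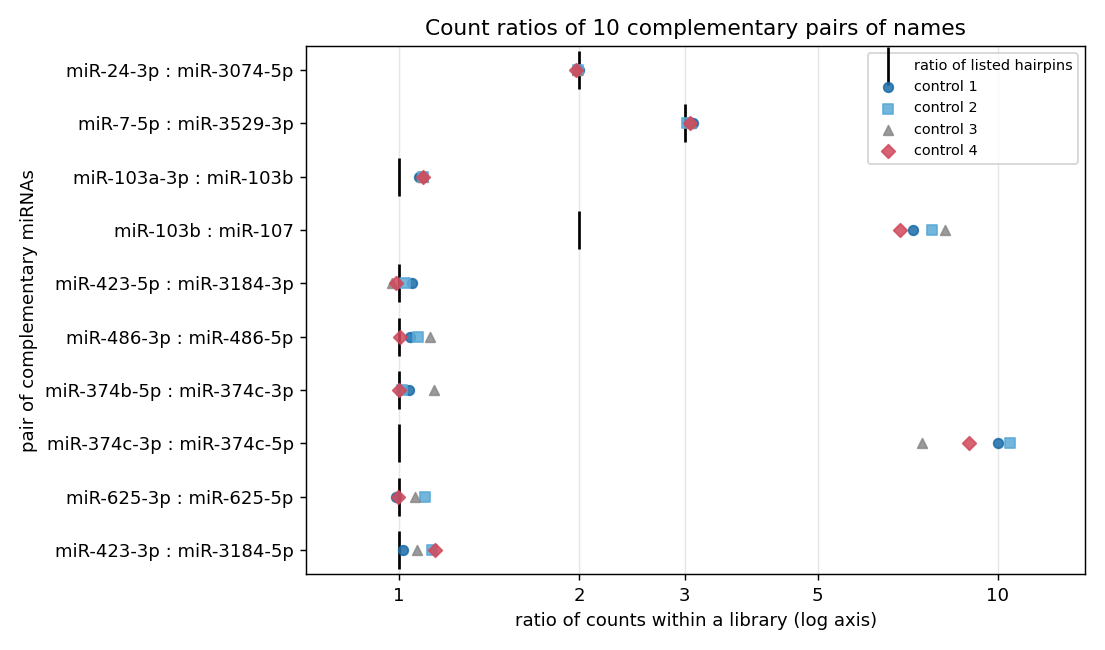
Ratio of counts of 2 complementary names within each untreated library (symbols, log axis) for 10 pairs, with a black bar at the ratio of the hairpins the deposited table lists for them. In 8 pairs the 4 libraries lie within 15% of the bar, and miR-103b with miR-107 and miR-374c-3p with miR-374c-5p lie to its right.

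Whether a read that matches several hairpins was counted once or once for each is not given in the sources used here, and 165 names are listed on more than 1 hairpin, 7 of the first 20 among them. With each count divided by the number of hairpins, ranks 1 to 4 were unchanged, let-7a-5p moved from rank 5 to 10, miR-24-3p from 15 to 29 and miR-7-5p from 17 to 41. The share of the first 10 names became 78.2%.

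Between libraries, base composition moved with level. In control 3, names with up to 35% G+C were lower than the mean of the other libraries by a median log2 difference of -0.46, and names over 65% G+C were higher by 0.45. Across the 432 names the difference had a Pearson r of 0.390 and a Spearman rho of 0.412 with G+C. Control 1 went the other way (medians of 0.12 and -0.45, r -0.168, rho -0.305). Control 2 did so by less, with almost no linear trend (medians of 0.22 and -0.10, r -0.021, rho -0.184). Control 4 showed little trend (r -0.113, rho 0.032). Each library was set against a mean of the others, so opposite signs are partly built in. let-7a-5p, let-7g-5p, miR-26a-5p and miR-30c-5p had their lowest values in control 3, and the part of base composition in this was not tested. For the arm ratios of the 344 stems, the shift of a library from the others had an r of -0.181 to 0.108 with the G+C difference of the arms.

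**Figure D5:**
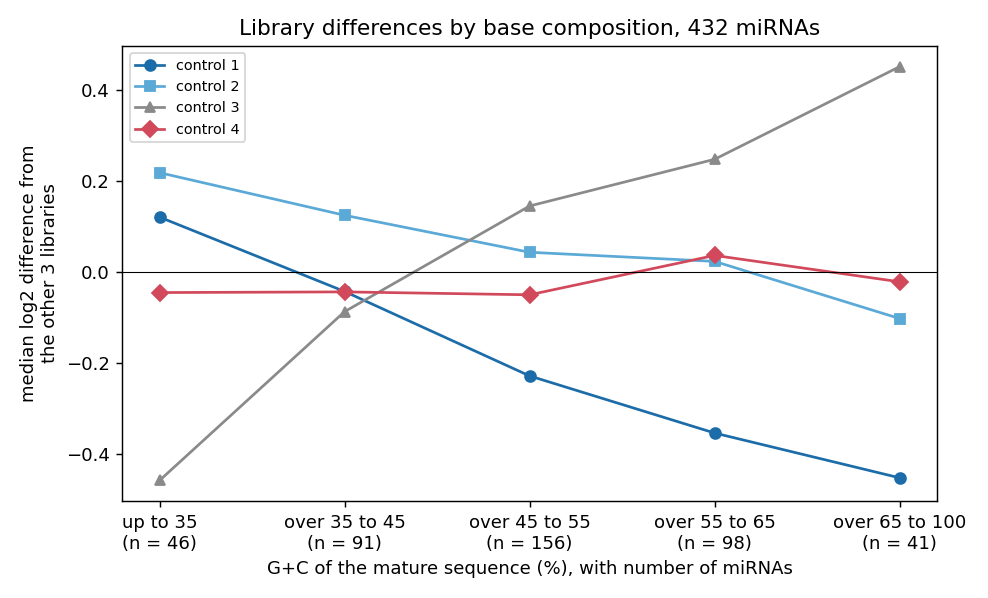
Median log2 difference in CPM between each untreated library and the mean of the other 3, for 432 miRNAs in 5 bins of G+C content of the mature sequence, with the number of miRNAs per bin. Control 3 rises from -0.46 to 0.45 across the bins, control 1 falls from 0.12 to -0.45, control 2 from 0.22 to -0.10, and control 4 stays near 0.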

How the data were processed

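Small RNA libraries of 4 untreated TPC-1 samples were described. Trizol extraction of total RNA, miRNeasy purification of miRNA and a standard Illumina preparation are stated per the labels. The authors deposited raw read counts per mature miRNA name, with a list of hairpins and a sequence for each. The submitters' processing notes name BWA, HISAT2 2.0.4 and GRCh38.p10, without saying what each was for. For the counting rule, strand and reads with several matches, nothing was given in the sources used here. The RNA-seq table and the treated samples were not used. No column of per-sample values was left without a sample (0 columns).

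CPM was computed from column totals with Python 3.11.15, pandas 2.3.3 and numpy 2.4.6, and is given as mean ± SD. Seeds are bases 2 to 8 of RefSeq sequences matched by name. Arms were tested with edgeR 4.0.16 in R 4.3.3 (glmQLFit, glmQLFTest), with 1 row per stem, 8 columns (4 libraries by 2 arms), the library totals as offset and the library as a block, since both arms come from 1 library; stems needed 10 counts in every library, and p-values were adjusted over 344 stems by Benjamini-Hochberg at 0.05. The SE of a log2 ratio is from this fit. The scripts were tested on simulated counts. Alternatives were DESeq2 1.42.0, limma 3.58.1, TMM sizes, other filters, no block, merged copies and leaving out each library. Added after seeing the data were leaving out stems with antisense partners or the blood list, deposited sequences for seeds, and counts divided by hairpins. Reads carried no stated molecular identifiers, so the floor of 3 counts covers counting error only.

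Named were the 20 most abundant miRNAs, the first 10 seed families, 18 stems (of those at 100 CPM or more, the 6 largest and 6 smallest ratios and the 6 nearest to 1), leading members of 28 lists and 32 clusters, the names at 100 CPM or more that varied most or stood highest or lowest in control 4, and both miR-486 arms. miR-365a, miR-27a, miR-222, miR-142-3p, miR-223-3p, miR-150-5p, miR-363-3p, miR-20b-5p and the antisense pairs were singled out after their values were seen. The members, lists and rules were chosen with earlier results of these data known.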

Additional observations from a re-analysis of the deposited data

Results flagged for a closer look

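Of 85 values screened over the 4 libraries, 9 had a library whose gap to its nearest neighbor took a share of the whole range above the 95% critical value of Dixon's test for 4 samples. Chance gives about 5% of such values where they are not chosen for their spread. miR-451a, miR-142-5p, miR-144-5p and both miR-486 arms also met the rule for names that varied most between libraries. The 5% is therefore no measure for them or for the blood list that holds most of them. Several of the 9 are also not independent, since lists and families contain the names. In 6 of them control 4 was the high library: miR-451a (gap 0.989 of the range), miR-142-5p (0.982), miR-144-5p (0.977), miR-486-5p (0.978), miR-486-3p (0.979) and the summed blood cell list (0.989). Control 2 was the high library for miR-30a-3p (0.967), at 5696 CPM against 4838 to 4866, and for the summed miR-10 list (0.991), at 11.04 CPM against 7.46 to 7.50. Control 3 was the low library for the seed family of miR-200b-3p (0.880), at 6338 CPM against 7467 to 7621. The last 3 differences are smaller than 1.5-fold.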

How the results depend on the processing

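The count of stems called for 5p was 154 to 169 and for 3p 143 to 154 with DESeq2, limma, TMM sizes, merged copies, no replicate block or any library left out, against 159 and 145. Without the replicate block it was 155 and 143. Fewer or more stems tested changed the counts: 91 and 68 of 166 stems with at least 100 counts in every library, and 236 and 219 of 859 with no filter. Requiring 10 CPM in place of 1 in every library left 368 names. With miR-21-5p left out, the first 10 names held 61.6%, names in -5p 66.4% and the leading seed family, then let-7, 34.4%. Counts divided by listed hairpins gave 78.2% for the first 10 names and 41.9% for the miR-21-5p family. For the 18 described stems, 202 alternative fits kept the call and 11 lost it, 9 for miR-671 (adjusted p up to 0.148) and 2 for miR-455; none changed direction. Depth limits names under about 0.649 CPM and the smaller arm of one-sided stems, which had as few as 3 counts.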

Other observations

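The 3 names at 100 CPM or more that were lowest in control 4 relative to the mean of the others were miR-4456, miR-12135 and miR-135b-3p. miR-4456 was at 820, 601, 218 and 272 CPM in controls 1 to 4, and miR-12135 at 721, 864, 464 and 449. miR-135b-3p was at 219, 214, 166 and 142 CPM. Control 4 was at 0.50, 0.66 and 0.71 of the mean of the others for the 3 names.

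Among the low imprinted 14q32 hairpins, MIR379 was at 5.26, 8.44, 9.99 and 7.11 CPM and MIR127 at 3.22, 7.36, 3.54 and 6.53. Of the chromosome 19 cluster, MIR516A1 was at 12.04, 22.3, 33.7 and 39.0 CPM.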
